A study of Mus musculus with 18 samples.

Results

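The livers described here came from AhRΔHSC mice, in which the aryl hydrocarbon receptor (AHR) was deleted in hepatic stellate cells. They are called dHSC below. The response to the dioxin TCDD in these mice was read by setting 3 livers of TCDD-treated mice (replicates 6, 12 and 18) against 3 livers of vehicle-treated mice (replicates 5, 11 and 17). These are 6 of the 18 libraries of the series. All genes of the deposited count files were considered, and 14835 of them held enough counts to be tested. All mice were female, on a C57BL/6 background, and each library is 1 of the 3 mice of its group. TCDD-treated mice received 100 µg/kg by gavage every 4 days, vehicle-treated mice received peanut oil, and livers were collected at day 92. Values from 2 further genotypes, with the same 2 treatments and 3 mice a group, are set beside the dHSC values. One is AhRfl/fl, labelled WT, for which the labels name no deletion. The other is AhRΔHep, called dHep, with AHR deleted in hepatocytes. The Cre driver of each deletion, the deleted part of Ahr and the age of the mice are not given in the sources used here. The study asked, per its title, whether chronic TCDD activates liver myofibroblasts through AHR in hepatocytes.

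AHR is a transcription factor that rests in the cytoplasm with HSP90 chaperones until it binds a ligand such as TCDD. It then enters the nucleus, pairs with ARNT and binds the response element core GCGTG near genes such as Cyp1a1. Hepatic stellate cells are the pericytes of the liver sinusoids. At rest they store vitamin A, and when activated they become myofibroblasts, which contract and lay down fibrillar collagen. Hepatocytes make up most of the liver mass, so RNA of whole liver is mainly theirs. In such bulk samples, fewer cells of a type and less RNA per cell cannot be told apart.

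Total counts in the 6 dHSC libraries ran from 12706490 (TCDD replicate 6) to 22279872 (vehicle replicate 5). Vehicle replicate 17 and TCDD replicate 18 stood apart from the other 4. They held 2.67% and 4.25% of counts outside protein-coding genes, against 1.29% to 1.37%, and 8.70% and 28.4% of counts in mitochondrially encoded genes, against 5.37% to 5.63%. On the first principal component of the 6 libraries (59.0% of the variance) they scored 49.4 and 137, against -60.0 to -34.2. The second component (26.0%) put all 3 vehicle libraries, at 25.6 to 72.4, above all 3 TCDD libraries, at -54.3 to -26.6. Results are therefore given with and without these 2 libraries. Markers of liver were present in every library: the 18 listed hepatocyte genes summed to 109752, 94939 and 133117 CPM (counts scaled to library size) with vehicle and 104777, 83749 and 70388 with TCDD. Of the 18 stellate cell markers, 16 were tested. The other 2, Lrat and Gfap, had no counts in any library, and each lies wholly inside the span of another gene, so their 0 says nothing about the cells. Ahr itself (ENSMUSG00000019256, chromosome 12, 35497974 to 35535038) was at 45.5, 40.003 and 32.7 CPM with vehicle and at 58.3, 60.8 and 23.2 under TCDD, a shift of 0.27 ± 0.43 on the log2 scale (SE, n = 3 a group; edgeR adjusted p = 0.956). Because the deleted part of the gene is not known, this level checks no label.

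TCDD changed 379 genes in dHSC livers, 2.55% of those tested, at an adjusted p under 0.05 in edgeR's quasi-likelihood test. Of these, 254 rose (1.71%) and 125 fell (0.843%), and every one changed at least 2-fold. The median log2 change was 2.85 for the rises and -2.55 for the falls. Protein-coding genes made up 225 of the rises and 102 of the falls. The TCDD and vehicle libraries did not overlap for all 254 rises and for 124 of the 125 falls. Among all genes tested, every TCDD library was above every vehicle library for 9.61% and below for 7.7%. Without replicates 17 and 18, 119 genes rose and 54 fell, 0.79% and 0.358% of the 15069 then tested. Of these, 115 and 50 are among the calls from all 6 libraries. The 2 libraries left out of that fit showed the same direction for all 119 rises and all 54 falls when TCDD replicate 18 was divided by vehicle replicate 17. Of all genes, 46.8% went up and 53.0% went down in that ratio. A smaller set, 88 rises and 53 falls, was called with all 6 libraries and again with each 1 of the 6 left out in turn.

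**Figure D1:**
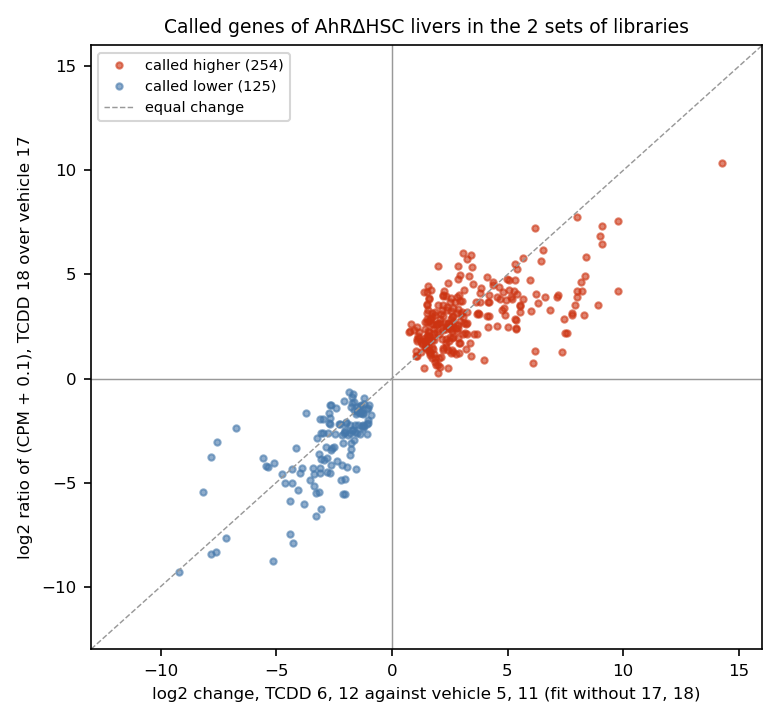
Each point is 1 of the 379 called genes of dHSC livers (254 higher, 125 lower). The horizontal axis gives the log2 change from TCDD replicates 6 and 12 against vehicle replicates 5 and 11, the vertical axis the log2 ratio of CPM plus 0.1 in TCDD replicate 18 over vehicle replicate 17, and the dashed line equal change. Rises lie to the right of 0 and falls to the left, with all 254 and all 125 keeping their sign without replicates 17 and 18. The sign on both axes was nearly fixed in advance, because nearly all called genes had groups that did not overlap. Replicates 17 and 18 contributed to the calls plotted.

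The promoters of genes at the extremes of the response are shown first, because AHR with ARNT is known to bind GCGTG. Each sequence is 300 bases of GRCm38.p6 from RefSeq, 250 before and 50 after the start site, written 5′ to 3′ on the gene's strand. Capitals mark GCGTG or its reverse complement CACGC. Cyp1a1, Cyp1b1 and Ahrr are AHR targets, Col9a2 had the largest rise, and Hao1 had the largest fall.
Cyp1a1 (chr9:57697363-57697662, + strand): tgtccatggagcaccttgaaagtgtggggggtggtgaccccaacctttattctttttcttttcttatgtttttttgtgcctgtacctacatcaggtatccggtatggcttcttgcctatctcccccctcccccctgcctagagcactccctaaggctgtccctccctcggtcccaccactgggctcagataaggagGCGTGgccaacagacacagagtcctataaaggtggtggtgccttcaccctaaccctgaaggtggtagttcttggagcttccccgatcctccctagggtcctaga
Cyp1b1 (chr17:79715012-79715311, - strand): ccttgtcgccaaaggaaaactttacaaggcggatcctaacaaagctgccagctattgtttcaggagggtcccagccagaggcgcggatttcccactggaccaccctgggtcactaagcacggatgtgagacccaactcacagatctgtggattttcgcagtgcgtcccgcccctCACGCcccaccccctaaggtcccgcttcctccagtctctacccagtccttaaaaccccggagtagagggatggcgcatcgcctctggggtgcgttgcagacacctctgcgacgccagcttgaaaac
Ahrr (chr13:74292282-74292581, - strand): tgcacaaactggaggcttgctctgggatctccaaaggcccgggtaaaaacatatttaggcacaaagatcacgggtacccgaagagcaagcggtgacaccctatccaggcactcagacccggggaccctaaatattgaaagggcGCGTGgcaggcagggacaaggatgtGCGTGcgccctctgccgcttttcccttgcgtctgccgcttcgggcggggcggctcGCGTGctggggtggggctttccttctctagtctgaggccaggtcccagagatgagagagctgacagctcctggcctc
Col9a2 (chr4:121039316-121039615, + strand): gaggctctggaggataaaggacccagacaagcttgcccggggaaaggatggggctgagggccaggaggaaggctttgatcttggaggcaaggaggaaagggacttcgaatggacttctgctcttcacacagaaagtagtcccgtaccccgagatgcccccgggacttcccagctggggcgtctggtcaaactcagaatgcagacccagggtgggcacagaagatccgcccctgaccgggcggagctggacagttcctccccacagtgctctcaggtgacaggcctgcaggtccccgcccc
Hao1 (chr2:134554303-134554602, - strand): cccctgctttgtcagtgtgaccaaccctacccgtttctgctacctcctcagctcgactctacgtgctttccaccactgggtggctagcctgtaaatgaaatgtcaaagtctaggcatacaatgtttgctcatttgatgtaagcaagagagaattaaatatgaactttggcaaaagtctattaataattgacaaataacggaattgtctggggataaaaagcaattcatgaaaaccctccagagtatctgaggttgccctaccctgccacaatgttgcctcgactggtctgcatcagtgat
The Cyp1a1 and Cyp1b1 promoters each held 1 match, with its first base at -54 and -76 from the start site. The Ahrr promoter held 3, at -107, -82 and -27. Col9a2 and Hao1 had none in these 300 bases, which says nothing of sites farther away. Of the 10871 tested genes with a RefSeq promoter, 52.8% held GCGTG on either strand. The share was 43.0% of the 179 called rises with a promoter and 18.3% of the 82 called falls. The longer TNGCGTG, which contains GCGTG, was in 8.78% of the promoters of tested genes, 7.26% of those of rises and 3.66% of those of falls. Called rises thus held the core no more often than tested genes at large in these windows. A match is a description and not a bound site.

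The enzymes and feedback genes under AHR control rose steeply without stellate cell AHR. Of the 10 tested list members, 6 rose and none fell, with a median log2 change of 3.10 against 0.00 over all genes. Among all genes, 1.71% rose and 0.843% fell. The same count of 6 was called without replicates 17 and 18. Cyp1a1, the monooxygenase most used as a readout of AHR (ENSMUSG00000032315, chromosome 9, 57687928 to 57703824), was at 16.7, 3.24 and 15.1 CPM in the 3 vehicle mice. It reached 5486, 5576 and 2449 CPM in the 3 TCDD mice (replicates in the order 5, 11, 17 and 6, 12, 18, as throughout), or 8.59 ± 0.92 in log2 units (SE, n = 3; adjusted p = 8.41e-05). Every TCDD library was above every vehicle library by 2 orders of magnitude, and replicate 18 was the lowest of the 3. Cyp1b1, a related monooxygenase found in many cell types (ENSMUSG00000024087, chromosome 17, 79701537 to 79715061), went from 1.54, 2.14 and 3.24 to 937, 1038 and 291 CPM, a log2 change of 8.36 ± 0.74 (adjusted p = 9.53e-06). Cyp1a2, the hepatocyte member of the family (ENSMUSG00000032310, chromosome 9, 57676937 to 57683703), was already high with vehicle, at 1665, 1287 and 1693 CPM, and reached 13996, 14373 and 7557. Its log2 change was 2.95 ± 0.56 (adjusted p = 0.00786), and with vehicle replicate 11 left out the adjusted p was 0.0596.

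Of the genes that restrain AHR, both listed members rose. Ahrr, the repressor that competes for ARNT (ENSMUSG00000021575, chromosome 13, 74211118 to 74292331), went from 0.181, 0.221 and 0.422 CPM to 66.8, 69.9 and 29.4, a log2 change of 7.66 ± 0.63 (edgeR adjusted p = 6.84e-06). Tiparp, an ADP-ribosyltransferase that dampens AHR (ENSMUSG00000034640, chromosome 3, 65528410 to 65555518), went from 10.004, 11.7 and 7.46 CPM to 94.9, 114 and 69.9, at 3.26 ± 0.36 (adjusted p = 8.41e-05). Again replicate 18 was the lowest TCDD library for both, and neither overlapped its vehicle group. Nqo1, a quinone reductase, went from 20.1, 21.1 and 20.4 CPM to 87.4, 79.3 and 32.5, at 1.69 ± 0.32 (adjusted p = 0.00786). These 3 genes and Cyp1a1 and Cyp1b1 were called with each library left out in turn, Nqo1 at an adjusted p of up to 0.0492. The members that were not called were Nfe2l2 (0.92, adjusted p = 0.109), Xdh (0.72), Aldh3a1 (3.34, adjusted p = 0.476) and Cyp2s1 (0.03). Of the 7 tested partners of AHR, the kinase Src rose, from 7.06, 3.24 and 3.17 to 23.3, 19.3 and 14.5 CPM. Arnt was at -0.18 on the log2 scale and Hsp90ab1 at -0.52, neither called.

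**Figure D2:**
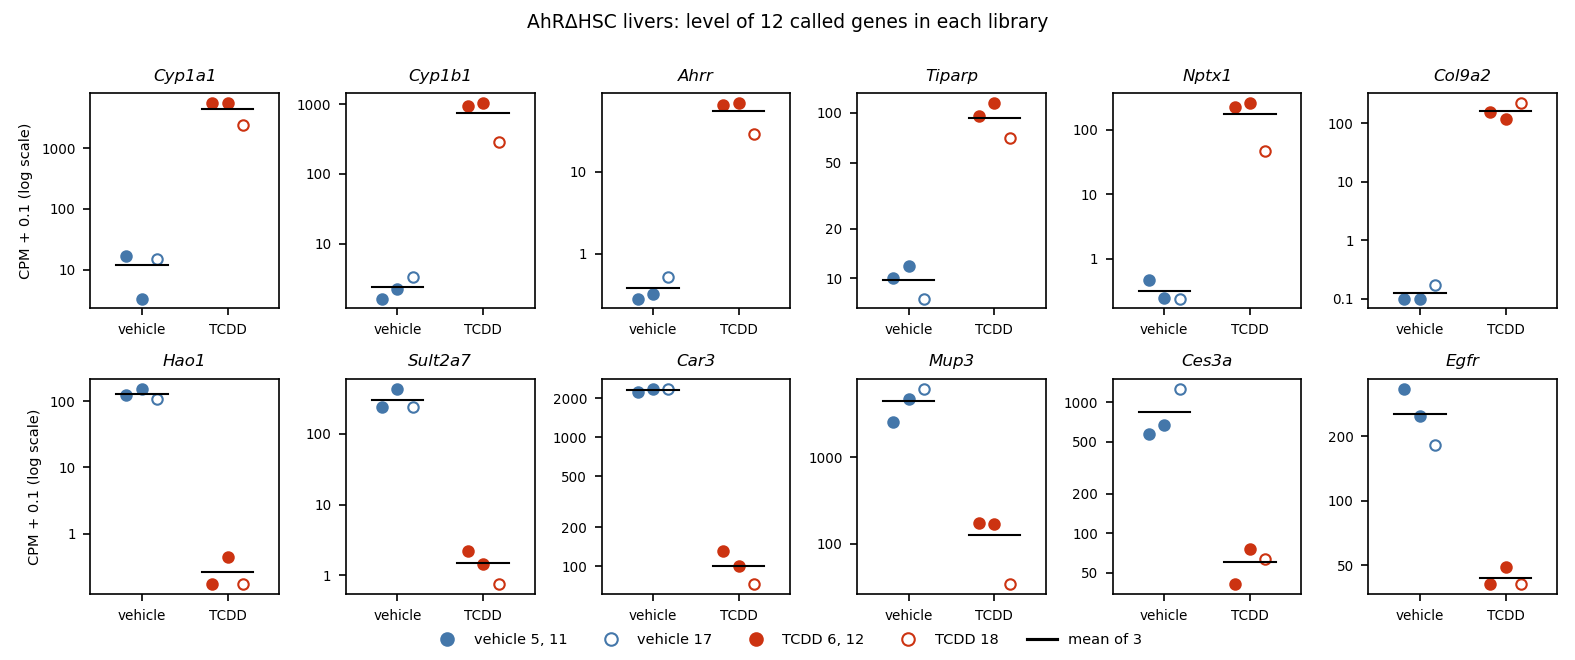
Level of 12 called genes in each of the 6 dHSC libraries, as CPM plus 0.1 on a log axis, with vehicle in blue, TCDD in red, open circles for replicates 17 and 18, and a bar at the mean of 3. The TCDD group lies wholly above the vehicle group in the first 6 panels, Cyp1a1 to Col9a2, and wholly below it in the last 6, Hao1 to Egfr.

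The largest rise was in Col9a2. This gene, for a chain of cartilage collagen IX (ENSMUSG00000028626, chromosome 4, 121039385 to 121055322), had 1 count in all of dHSC vehicle and was at 153, 117 and 222 CPM with TCDD. The ratio of the groups was 7877 (95% counting interval 1414 to 311126), which covers counting error only (log2 change 12.56 ± 0.89, edgeR adjusted p = 2.83e-06). Nptx1, a secreted pentraxin of neurons (ENSMUSG00000025582, chromosome 11, 119538719 to 119547753), went from 0.362, 0.147 and 0.141 CPM to 229, 260.4 and 46.1, a log2 change of 9.55 ± 0.78 (adjusted p = 6.84e-06). Unlike Col9a2, which was highest in replicate 18, Nptx1 was lowest there. Hmx1, a homeobox factor, was at 18.1, 18.1 and 19.6 CPM with TCDD against 2 counts in vehicle, a ratio of 463 (95% counting interval 128 to 3826). A lipase-related gene of pancreas, Pnliprp1, was at 5.24, 27.7 and 21.6 CPM against 2 counts, a ratio of 487 (95% counting interval 135 to 4020.4). Gipc2, a PDZ-domain protein, went from 0.181, 0.221 and 0.492 CPM to 19.7, 15.9 and 29.9, at 6.203 ± 0.85 (adjusted p = 0.000842).

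3 other rises started from no count in any vehicle library, so their folds are lower bounds against a floor of 3 counts over the group. Ovol1, an epithelial zinc finger factor, was at 5.53, 6.48 and 1.72 CPM with TCDD, at least 80.1-fold higher. The peptidase-like Ecel1 was at 1.18, 5.19 and 1.07 CPM, at least 47.4-fold higher. Adra2a, the alpha-2A adrenergic receptor, was at 0.812, 3.51 and 2.94 CPM, at least 42.8-fold higher. The calls of Ecel1 and Adra2a were lost when vehicle replicate 5 or 11 was left out (edgeR adjusted p of up to 0.0556 and 0.076), and that of Adra2a also without vehicle replicate 17 and without replicates 17 and 18 together. Apol7c, an apolipoprotein L gene, went from 0.453, 0.295 and 0.352 to 40.5, 32.9 and 33.03 CPM, although 25.59% of its 50-base exon stretches also occur in another gene. Pkp1, a plaque protein of desmosomes, went from 0.453, 0.221 and 0.141 to 24.8, 29.6 and 3.87 CPM. Of the 15 largest rises by the naming rule, 14 were called without replicates 17 and 18.

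The largest fall was in Hao1, the peroxisomal glycolate oxidase of hepatocytes (ENSMUSG00000027261, chromosome 2, 134497361 to 134554368). It was at 122, 154 and 107 CPM with vehicle and at 0.0738, 0.346 and 0.0716 under TCDD, where the 3 libraries together held 9 counts. The log2 change was -9.41 ± 0.79 (SE, n = 3; edgeR adjusted p = 7.07e-06). No other tested member of its list of 20 glyoxylate, serine and one-carbon genes was called, and the list's median was -0.65. Mmd2, a membrane protein, went from 32.6, 41.2 and 16.9 CPM to 0.221, 0.0494 and 0.287, at -7.39 ± 0.80 (adjusted p = 8.41e-05). Irx1, a homeobox factor, went from 2.22, 2.73 and 3.09 CPM to 0.221, 0 and 0, and held 3 counts in all of dHSC TCDD. Vehicle exceeded TCDD in Irx1 by a ratio of 41.5 (95% counting interval 14.2 to 201). Serpinb1a, an inhibitor of neutrophil proteases, went from 82.7, 60.1 and 42.6 to 2.21, 3.11 and 1.65 CPM. These 4 genes fell in every setting that left out a library, and their groups were far apart.

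Enzymes that conjugate, hydrate and hydrolyse small molecules were among the steepest falls. Over all genes tested, 0.843% fell and 1.71% rose. Of 13 sulfotransferases tested, 5 fell and none rose (median -0.90), and 3 fell without replicates 17 and 18. They were Sult3a2 (-8.12), Sult2a7 (-7.79), Sult3a1 (-4.61) and Sult2a8 (-3.27), all on the log2 scale, and the fifth was Sult1a1 (-1.502). Sult2a7 (ENSMUSG00000094156, chromosome 7, 14465051 to 14494230) went from 239.9, 434 and 238 CPM to 2.14, 1.33 and 0.645, a log2 change of -7.79 ± 0.85 (edgeR adjusted p = 8.41e-05). Sult3a1 differed among TCDD mice, with 2.43, 47.2 and 1.07 CPM against 318, 639.8 and 285 with vehicle, and its call was lost without vehicle 5 or 11 or without TCDD 6 or 18 (adjusted p of up to 0.105). Of 8 carbonic anhydrases, 3 fell, Car3, Car1 and Car14. Car3 (ENSMUSG00000027559, chromosome 3, 14863512 to 14872523) went from 2256, 2374 and 2381 CPM to 131, 100.002 and 72.1, at -4.53 ± 0.53 (adjusted p = 0.00016). Its 3 vehicle libraries were nearly equal, and every TCDD library was more than an order of magnitude below them. The carboxylesterase Ces3a went from 567, 668 and 1267 to 40.5, 75.9 and 63.6 CPM, at -3.80 ± 0.50 (adjusted p = 0.000584). Of 8 genes of the CYP3A family, Cyp3a16 and Cyp3a59 fell, with a list median of -2.14. The Cyp3a16 call was lost with any 1 library left out (adjusted p of up to 0.151), as was that of Cyp3a59 without vehicle 5, TCDD 6 or TCDD 12.

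Major urinary proteins are small secreted carriers of pheromones made by hepatocytes. Across all tested genes, 0.843% fell and 1.71% rose. Of 19 tested Mup genes, which lie between 60066469 and 62150863 on chromosome 4, 11 fell and none rose, with a median log2 change of -3.43 (-2.21 without replicates 17 and 18). Together they took 0.512%, 1.28% and 1.996% of CPM in the 3 vehicle mice, against 0.173%, 0.157% and 0.0504% in the 3 TCDD mice. The groups did not overlap in this share, although vehicle mice differed widely among themselves, with replicate 17 the highest. Mup3 (ENSMUSG00000066154, chromosome 4, 62083476 to 62087342) went from 2502, 4654 and 6123 CPM to 174, 169.8 and 34.1, a log2 change of -5.13 ± 0.69 (edgeR adjusted p = 0.000815). It was the 1 Mup gene still called without replicates 17 and 18 (adjusted p = 0.00391). Mup17 was at 574, 2033 and 8429 CPM with vehicle and 399, 211 and 178 under TCDD, and was not called without vehicle 17 or without TCDD 12 or 18. The members are near copies: 13.27% of the 50-base exon stretches of Mup3 also occur in another gene, against 78.13% of Mup17, 86.68% of Mup7 and 92.78% of Mup13. How the authors' counting split shared reads is not given in the sources used here, so single Mup values are uncertain.

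Genes known to differ between female and male liver fell in both directions of that bias. The share over all genes tested was 0.843% for falls and 1.71% for rises. Of 26 female-biased genes, 7 fell and none rose (median -1.32), and of 19 male-biased genes, 6 fell and 1 rose (median -0.84). Sult3a2, Sult2a7 and Cyp17a1, a steroid-cleaving enzyme, were among the female-biased falls. Without replicates 17 and 18 these counts were 4 fallen of the female-biased, and 2 fallen and 1 risen of the male-biased. Among the male-biased genes the members that fell included 4 Mup genes (Mup7, Mup3, Mup17 and Mup12), the protease inhibitor Serpina1e and Susd4. Serpina1e went from 89.7, 169.9 and 55.9 to 7.08, 9.24 and 2.29 CPM, at -4.08 ± 0.74 (edgeR adjusted p = 0.00618), with 34.63% of its exon stretches shared. The member that rose was Cyp2d9, a male-biased steroid hydroxylase, from 14.3, 9.43 and 34.9 to 99.3, 118 and 93.4 CPM (adjusted p = 0.0281). Its call was lost without vehicle 5 or 11 or without TCDD 6 or 12 (adjusted p of up to 0.157), and 21.78% of its stretches are shared. Of 18 genes of growth hormone and STAT5 signalling, which sets this bias in liver, Egfr alone was called. Egfr, the EGF receptor (ENSMUSG00000020122, chromosome 11, 16752203 to 16918158), went from 334, 248 and 181 CPM to 40.7, 48.9 and 40.6, at -2.55 ± 0.37 (adjusted p = 0.00126). 

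**Figure D3:**
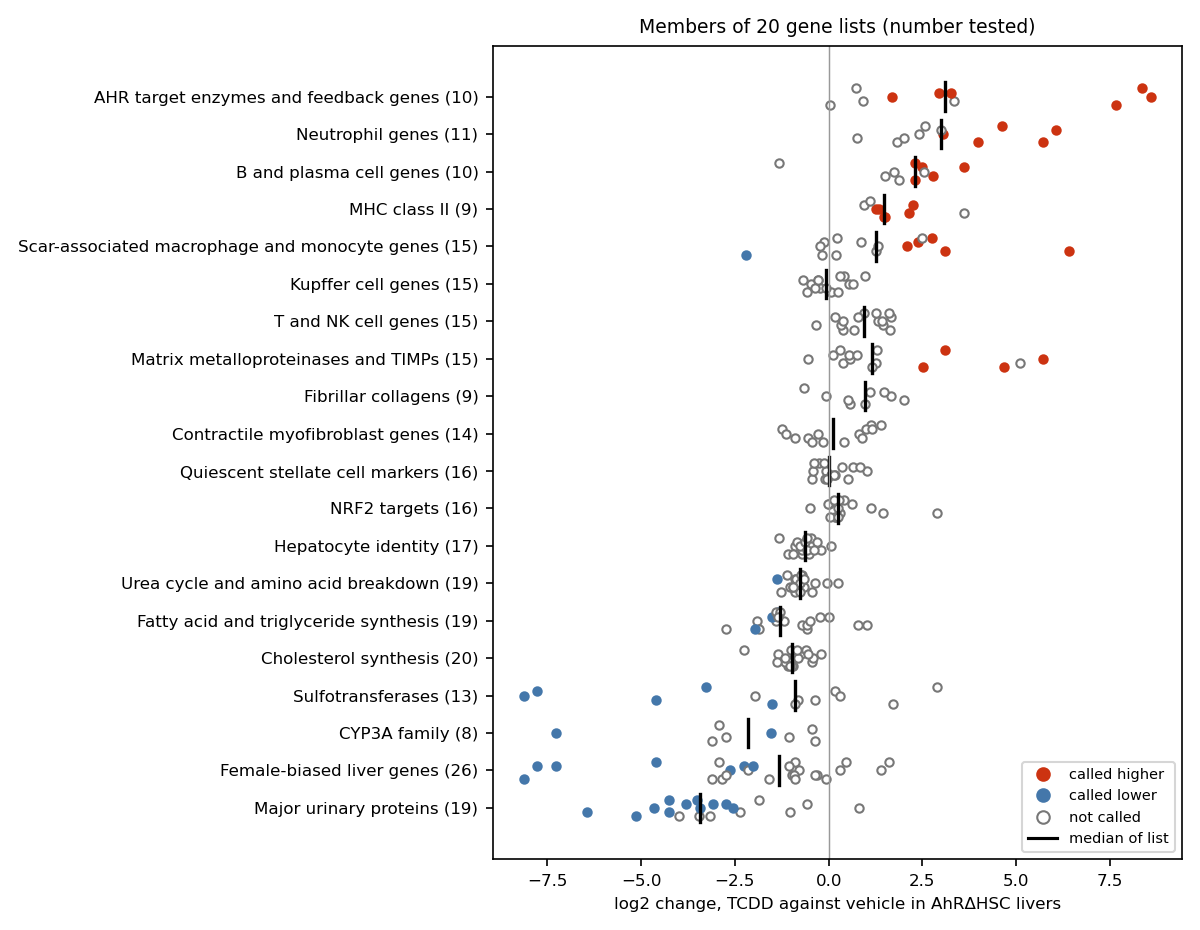
Log2 change with TCDD in dHSC livers for each tested member of 20 gene lists, with the number tested in brackets. Filled red and blue points are called higher and lower, open points were not called, and the black bar is the list's median, from 3.10 for AHR targets to -3.43 for major urinary proteins.

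Fibrosis genes split into parts that rose and parts that were not called. No fibrillar collagen was called among 9 tested (median 0.96, against 0.00 over all genes, of which 2.55% were called). Col1a1, the main chain of collagen I (ENSMUSG00000001506, chromosome 11, 94936224 to 94953042), was at 12.7, 9.50 and 5.84 CPM with vehicle and 41.5, 31.9 and 40.3 under TCDD. The groups did not overlap, and the log2 change of 2.02 ± 0.54 missed the threshold (SE, n = 3; edgeR adjusted p = 0.0622). Without replicates 17 and 18 it was 1.72 (adjusted p = 0.39). Col1a2 was at 20.2, 13.4 and 18.5 CPM and 49.1, 41.5 and 73.9 (adjusted p = 0.141), and Col3a1 at 52.5, 36.6 and 41.6 and 84.2, 71.5 and 98.7 (adjusted p = 0.346), again with no overlap. Lox, the enzyme that cross-links collagen, was at 0.543, 0.368 and 0.774 CPM and 3.47, 1.93 and 2.58, at 2.22 ± 0.58 (adjusted p = 0.0578).

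Of 30 other matrix proteins and crosslinkers, 3 rose, Col9a2, Tnc and Eln, where 1.71% of all genes rose. Tenascin C, encoded by Tnc and laid down in wounds (ENSMUSG00000028364, chromosome 4, 63959785 to 64047015), went from 0.860, 1.03 and 0.703 CPM to 15.5, 11.1 and 10.2, a log2 change of 3.82 ± 0.52 (edgeR adjusted p = 0.000835). Elastin (Eln) went from 5.21, 3.46 and 3.09 CPM to 12.3, 12.5 and 21.1 (adjusted p = 0.0451) and was not called with any 1 library left out. Of 19 basement membrane genes, Col4a3 and Col4a4 rose, chains of the collagen IV network of kidney and lung. They went from 1.13, 1.03 and 0.492 to 16.8, 6.67 and 36.5 CPM and from 1.18, 2.14 and 1.06 to 15.9, 7.07 and 17.1 CPM, with adjusted p of 0.0184 and 0.0118. Neither was called without replicates 17 and 18 (adjusted p = 0.219 and 0.138). Col4a3 was also lost without vehicle 5, 11 or 17 or TCDD 18, and Col4a4 without vehicle 5 or 17.

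Several matrix-degrading enzymes rose, where 1.71% of all genes did. Of 15 metalloproteinases and inhibitors, 4 rose (Mmp13, Mmp8, Mmp12 and Adamdec1), none fell, and the same count rose without replicates 17 and 18. Mmp13, a collagenase (ENSMUSG00000050578, chromosome 9, 7272514 to 7283331) went from 0.362, 0.368 and 0.844 CPM to 14.8, 12.4 and 13.3, at 4.69 ± 0.51 (edgeR adjusted p = 8.41e-05). The neutrophil collagenase Mmp8 was at 2.07, 1.38 and 4.30 CPM with TCDD against 2 counts in vehicle, a ratio of 60.6 (95% counting interval 16.8 to 500.4). The macrophage elastase Mmp12 went from 1.13, 0.884 and 0.352 to 8.56, 8.75 and 3.44 CPM, and was not called without vehicle 11 (adjusted p = 0.0536). Adamdec1, a metalloprotease of macrophages, went from 3.89, 6.26 and 5.98 to 32.5, 27.98 and 31.02 CPM. The inhibitors Timp1 and Timp3 lie wholly inside other genes and held no counts, so this list cannot speak for them.

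The genes that define stellate cells and myofibroblasts were not called. None of 14 contractile myofibroblast genes passed, with a median of 0.12 (-0.22 without replicates 17 and 18), and none of 16 quiescent stellate cell markers, with a median of 0.02. Over all genes tested 2.55% were called, so lists of this length can hold no call at that share. Acta2, the smooth muscle actin used to mark myofibroblasts (ENSMUSG00000035783, chromosome 19, 34241090 to 34255590), was at 3.44, 6.26 and 5.28 CPM with vehicle and 4.87, 3.56 and 11.3 under TCDD. These groups overlapped, and the log2 change was 0.40 ± 1.10 (SE, n = 3; edgeR adjusted p = 0.987), so its SE spans more than a 2-fold change in either direction. Vim, an intermediate filament protein of mesenchymal cells, was at 28.5, 31.6 and 33.1 CPM and 44.1, 40.6 and 123, highest in replicate 18. Tagln was at 0.181, 0.516 and 2.11 and 0, 0.247 and 1.79 CPM. The stellate cell glycoprotein Reln was at 66.1, 53.2 and 47.9 CPM and 101, 133 and 65.98, at 0.85 ± 0.29 (adjusted p = 0.174). The receptor Pdgfrb was at 13.6, 10.4 and 8.51 and 14.7, 14.7 and 17.3 CPM, at 0.52 ± 0.27. Colec11 (-0.08), Hgf (0.06) and Ecm1 (-0.27) were close to 0, with SEs of 0.27, 1.01 and 0.49. The summed level of the stellate cell list was 817, 661 and 763 CPM with vehicle and 813, 844 and 648 under TCDD, and that of the myofibroblast list 403, 421 and 234 and 411, 437 and 352.

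Signals that act on stellate cells were called in few cases. Among genes of TGF-beta and CCN signalling, the ligand Tgfb2 (ENSMUSG00000039239, chromosome 1, 186622792 to 186705989) went from 2.13, 0.737 and 0.703 CPM to 9.001, 15.1 and 7.24, at 3.10 ± 0.56 (edgeR adjusted p = 0.00586), and was called with each library left out. Tgfb1 (0.78) and Ccn2 (0.87) were not called. None of 11 mitogens of stellate cells and their receptors was called, against 2.55% of all genes (median 0.76). Pdgfb, among them, was at 1.40, 1.47 and 2.25 CPM and 6.05, 4.65 and 6.95, with no overlap (adjusted p = 0.102).

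**Figure D4:**
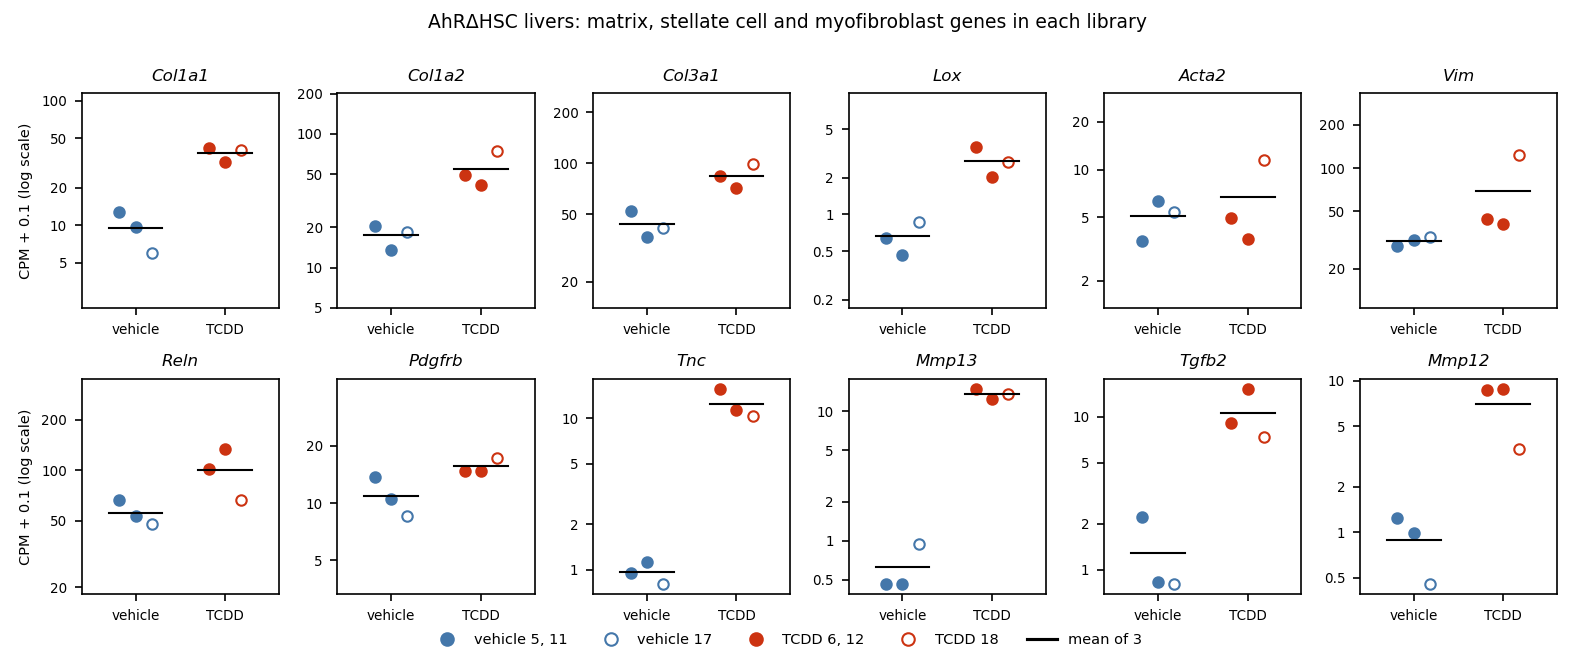
Level of 12 matrix, stellate cell and myofibroblast genes in each of the 6 dHSC libraries, as CPM plus 0.1 on a log axis, with vehicle in blue, TCDD in red, open circles for replicates 17 and 18, and a bar at the mean of 3. The groups overlap for Acta2, overlap narrowly for Reln, at 66.1 (vehicle) and 65.98 CPM (TCDD), and lie well apart for Tnc, Mmp13, Tgfb2 and Mmp12, the 4 called genes.

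Genes of neutrophils, B cells and antigen presentation rose, and the called members described here were highest in 1 mouse, TCDD replicate 18. Among all genes tested, 1.71% rose. Of 11 neutrophil genes, 5 rose (median 3.01), of 10 B and plasma cell genes, 5 (median 2.30), and of 9 MHC class II genes, 6 (median 1.48). Without replicates 17 and 18, these counts were 2, 0 and 1, and the medians 2.41, 1.37 and 0.83. S100a8, a calcium-binding protein that fills neutrophils (ENSMUSG00000056054, chromosome 3, 90668978 to 90670035), was at 0.362, 0.589 and 1.76 CPM with vehicle and 3.98, 3.36 and 58.2 under TCDD. Replicate 18 was far above the other TCDD mice, and all 3 were above all vehicle mice. Its log2 change was 4.62 ± 1.08 (edgeR adjusted p = 0.0306) and 2.96 without replicates 17 and 18 (adjusted p = 0.128). The call was also lost with TCDD 18 or any 1 vehicle mouse left out. Il1r2, a decoy receptor for interleukin-1, kept its call: it was at 2.14, 1.78 and 5.80 CPM against 2 counts in vehicle, a ratio of 76.3 (95% counting interval 21.1 to 629.8). The B cell factor Pax5 went from 0.407, 0.737 and 1.06 to 2.80, 2.57 and 21.3 CPM, and the B cell receptor chain Cd79b from 1.18, 1.62 and 1.27 to 4.28, 3.86 and 11.96. Without TCDD 18 neither was called (adjusted p of up to 0.338 and 0.0517 with 1 library left out). Cd74, the invariant chain of MHC class II, went from 113, 157 and 80.95 to 279, 201 and 496 CPM (adjusted p = 0.0477; 0.583 without replicates 17 and 18). The summed level of the neutrophil list was 5.02, 6.41 and 13.2 CPM with vehicle and 25.01, 18.1 and 176 under TCDD. That of the B and plasma cell list was 554, 411 and 197 CPM in vehicle mice and 223, 217 and 217 under TCDD, and did not follow its called members. In 5 of the 6 libraries most of it was Sdc1, a proteoglycan also made by hepatocytes, at 544, 399 and 181 and 191, 193 and 68.7 CPM (log2 change -1.31, not called). Replicate 18 is also the library with 28.4% of mitochondrial counts, and the part of this in the immune result was not tested beyond these values without it.

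Macrophage genes moved unequally. No gene of 15 for Kupffer cells, the resident macrophages, was called, against 2.55% of all genes, with a median of -0.07. Clec4f, which only they express in liver, was at 151, 182 and 251 CPM with vehicle and 160.3, 113 and 282 under TCDD. Of 15 genes of scar-associated macrophages and monocytes, 5 rose and Atp6v0d2 fell, and without replicates 17 and 18, 2 rose and 1 fell. Gpnmb, a glycoprotein of lipid-laden and scar macrophages (ENSMUSG00000029816, chromosome 6, 49036546 to 49070929), went from 1.54, 0.295 and 0.211 CPM to 69.9, 73.4 and 46.4, at 6.42 ± 1.17 (edgeR adjusted p = 0.00618). Its TCDD values were within 2-fold of each other, unlike those of Lgals3 and Cx3cr1. Lgals3 went from 5.88, 10.1 and 14.6 to 27.96, 23.97 and 106 CPM and Cx3cr1 from 2.63, 2.14 and 1.69 to 5.61, 6.92 and 31.8, and neither was called without replicates 17 and 18 or without any 1 of the vehicle mice. The subunit gene Atp6v0d2 of the proton pump went from 16.3, 14.7 and 9.71 to 2.95, 1.88 and 4.01 CPM, at -2.21 ± 0.48 (adjusted p = 0.019), and was called in 2 of the 6 fits that left out 1 library. None of 15 T and NK cell genes was called (median 0.95), none of 17 interferon-stimulated genes (median -0.55), and of 18 chemokines Ccl22 rose and Ccl24 fell, the latter not called without replicates 17 and 18 (adjusted p = 0.102). Ccl22, which draws regulatory T cells, went from 0.407, 0.589 and 0.563 to 3.69, 2.87 and 8.31 CPM (adjusted p = 0.00104), and was called with each library left out.

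Most hepatocyte programmes gave few or no calls, where 2.55% of all genes tested were called. No gene of 17 for hepatocyte identity, 20 for cholesterol synthesis, 18 for bile acids or 26 nuclear genes of oxidative phosphorylation was called, with medians of -0.64, -0.97, -0.46 and -0.30. Of 19 genes of fatty acid and triglyceride synthesis, 3 fell. Fasn, fatty acid synthase (ENSMUSG00000025153, chromosome 11, 120805846 to 120824547), went from 660.1, 1071 and 511 CPM to 290.3, 202 and 82.6, at -1.96 ± 0.43 (edgeR adjusted p = 0.0217). The desaturase Fads1 went from 661, 747 and 579.7 to 375, 203 and 121 CPM, and Dgat2, which makes triglyceride, from 558, 969 and 949 to 409.7, 343 and 215. Fasn alone of the 3 was called without replicates 17 and 18, and each of them was lost with vehicle 11, TCDD 12 or TCDD 18 left out (adjusted p of up to 0.131 for Fasn). Otc, of the urea cycle, was the 1 called gene of 19 in its list, from 614, 714 and 734 to 325, 313 and 159 CPM (adjusted p = 0.0463), and lost its call with any 1 library left out. The hormone Fgf21 rose, from 0.453, 0.368 and 2.32 CPM to 8.56, 11.4 and 13.7, at 3.43 ± 0.77 (adjusted p = 0.0236), and was lost without vehicle 5 or 11 or TCDD 18 (adjusted p of up to 0.142). Cdh1, the adhesion protein E-cadherin of periportal hepatocytes, rose from 36.1, 18.2 and 23.9 CPM to 89.6, 101 and 53.7, at 1.65 ± 0.29 (adjusted p = 0.00529). It was the 1 called gene of 12 in the periportal list, whose median was -0.33, with 5 of the 12 above 0.

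Set beside WT livers, which share no library with this comparison, most dHSC calls were also WT calls. TCDD changed 798 genes in WT (5.38%), 509 higher (3.43%) and 289 lower (1.95%). Of the dHSC rises, 217 were also WT rises, 85.4% of the dHSC set and 42.6% of the WT set. Of the falls, 108 were shared, 86.4% of the dHSC set and 37.4% of the WT set. No gene was called in opposite directions. Vehicle replicate 1 of WT stood apart in skeletal muscle transcripts, whose list summed to 1616 CPM there and to 1.21 to 2.51 in the other 5 WT libraries. Without it, 569 genes rose and 352 fell in WT, and 218 and 107 were shared with dHSC, a setting chosen after the data were seen. With each other WT library left out, WT had 251 to 416 rises and 135 to 212 falls, of which 162 to 205 and 75 to 98 were shared. The fewest rises, 251 and 267, came without vehicle 7 or 13, and the fewest falls, 135 and 138, without TCDD 14 or 2. The median log2 change of the dHSC rises was 2.85 in dHSC and 2.98 in WT, and that of the falls -2.55 and -2.39. For the larger WT set, the median of the rises was 2.48 in WT and 1.76 in dHSC, and that of the falls -2.16 and -1.38. Each set was chosen on 1 of the 2 values compared, which raises that value.

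The difference between the 2 responses was tested gene by gene. edgeR called 0 of 14835 genes (0.0%), with 233 (1.57%) at an unadjusted p under 0.05 and a smallest adjusted p of 0.431. DESeq2 called 3, each with a lower signed log2 change in dHSC than in WT. The lipopolysaccharide co-receptor Cd14 was at 4.35, 5.75 and 5.28 CPM with vehicle and 4.94, 3.61 and 5.87 under TCDD in dHSC, and went from 3.48 ± 1.36 to 22.2 ± 5.24 CPM (mean ± SD, n = 3) in WT. The difference was -2.76 (edgeR adjusted p = 0.431, DESeq2 adjusted p = 0.000509). The chemokine Ccl24 fell in dHSC, from 3.58, 5.38 and 6.61 CPM to 1.48, 0.544 and 0.931, and was at 2.76 ± 0.727 and 3.80 ± 1.05 in WT. Its difference in edgeR was -2.87 (DESeq2 adjusted p = 0.0214). The third was the predicted gene Gm43305, which went from 5.98 ± 2.54 to 54.7 ± 29.7 CPM in WT and was at 13.3, 10.1 and 22.5 and 9.07, 1.53 and 16.2 in dHSC. In dHep, Cd14 was at 4.01, 5.59 and 3.70 CPM with vehicle and 4.54, 5.71 and 7.08 under TCDD. Gm43305 went there from 12.7, 11.7 and 11.1 to 7.96, 8.04 and 5.04 CPM. Ccl24 went there from 3.07, 3.93 and 3.25 to 0.519, 0.565 and 1.36 CPM, at -2.07 ± 0.46 (edgeR adjusted p = 0.165). A rise like that of WT was thus absent in both deletions for Cd14 and Gm43305. Cd14 and Gm43305 were chosen after their values were seen.

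Of the 54 genes called in dHSC and not in WT, 36 of 37 rises and 15 of 17 falls had the same sign in WT. How often all tested genes share their sign was not counted, so no excess can be read from these numbers. Among those of the 54 that met the naming rule, 6 had the smallest adjusted p in dHSC. In no order, they were Glrx, Mup18, Ccl24, Mup13, Pdia5 and Slc15a5. Without replicates 17 and 18 only Glrx of these 6 was called (adjusted p = 0.0357), and the adjusted p was 0.102 for Mup18, 0.102 for Ccl24, 0.0944 for Mup13, 0.0576 for Pdia5 and 0.0914 for Slc15a5. Glutaredoxin (Glrx) went from 50.8, 66.01 and 73.5 to 24.2, 22.7 and 25.1 CPM, at -1.40 ± 0.23 (edgeR adjusted p = 0.00355), and was at -0.52 ± 0.23 in WT. The disulfide isomerase Pdia5 went from 67.6, 68.3 and 82.6 to 25.01, 27.04 and 33.2 CPM, at -1.36 ± 0.27, and was at -0.67 ± 0.27 in WT. None of the 6 had a difference from WT that was called by edgeR, and the unadjusted p was 0.000335 for Ccl24, 0.0155 for Glrx and 0.0844 for Pdia5. Of the fibrosis genes, Col1a1 rose in WT by 2.46 ± 0.54 (adjusted p = 0.0128), and its dHSC change was lower by 0.44 ± 0.73 (unadjusted p = 0.556). For the risen matrix-degrading enzymes, dHSC minus WT was -1.475 ± 0.54 for Adamdec1, -1.66 ± 0.69 for Mmp13 and -1.91 ± 0.82 for Mmp12. Their unadjusted edgeR p was 0.0147, 0.0295 and 0.0334, and none was called after adjustment. Mmp8 went the other way, at 0.55 ± 1.21 (unadjusted p = 0.658). A difference that was not called does not show that the responses were equal.

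Set beside dHep livers, in which AHR was deleted in hepatocytes, the dHSC response had more calls and differed for 64 genes. TCDD changed 10 genes in dHep (0.0674%), with 4 higher (0.027%) and 6 lower (0.0404%), and the median log2 change there was 0.34 for the 254 dHSC rises and -0.24 for the 125 falls. The 64 genes (0.431%) whose difference was called by edgeR comprised 41 with a higher and 23 with a lower change in dHSC (0.276% and 0.155%). Of these, 35 were also dHSC rises and all 23 were dHSC falls. Without replicates 17 and 18 the counts were 30 and 6. In dHep, 3 of the 6 libraries are also among the 5 of the series with over 2% of counts outside protein-coding genes. The count of called differences moved with such libraries. It was 24 without dHep vehicle 9, 44 without dHep vehicle 15, 50 without dHep TCDD 16, and 131 with that share as a covariate. Leaving out a library outside those 5 also lowered it, to 27 without dHep TCDD 4, 31 without dHep TCDD 10, and 33, 34, 36 and 41 without dHSC vehicle 11, TCDD 12, vehicle 5 and TCDD 6.

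Named by size, the genes whose log2 change was higher in dHSC were Col9a2, Pnliprp1, Nptx1, Pdzrn3, Col4a3 and Gipc2. The dHep change itself was -0.63 for Col9a2, -4.42 for Pnliprp1, 0.01 for Nptx1, -2.96 for Col4a3 and -0.66 for Gipc2, none of them called. The differences of Pnliprp1 and Col4a3 thus also hold a negative dHep change at low counts. Col9a2 was at 0.403 ± 0.389 and 0.250 ± 0.144 CPM (mean ± SD, n = 3) in dHep with vehicle and TCDD, a difference of responses of 13.18 ± 1.16 on the log2 scale (edgeR adjusted p = 6.51e-05). Nptx1 was at 0.665 ± 0.414 and 0.668 ± 0.206, a difference of 9.54 ± 0.97 (adjusted p = 9.78e-05). Pdzrn3, a ubiquitin ligase, went from 1.40, 1.69 and 3.87 to 71.2, 52.3 and 179 CPM in dHSC, and was at 12.2 ± 15.4 and 1.97 ± 0.699 in dHep. Those with a lower log2 change in dHSC were Hao1, Mmd2, Sult2a7, Irx1, Serpina7 and Mup3. The dHep change was -0.19 for Hao1, -0.93 for Mmd2, -1.63 for Sult2a7, 0.59 for Irx1 and -0.71 for Mup3. Hao1 was at 120.004 ± 60.9 CPM with vehicle and 105 ± 30.5 under TCDD in dHep, a difference of -9.22 ± 0.91 (adjusted p = 9.24e-05). Serpina7, which carries thyroid hormone, went from 27.5, 12.6 and 17.6 to 2.36, 1.83 and 0.287 CPM in dHSC, and was at 57.4 ± 22.7 and 129 ± 89.6 in dHep. The AHR targets Cyp1a1, Cyp1b1 and Ahrr also differed, by 6.33 ± 1.02, 5.49 ± 0.81 and 5.90 ± 0.76, with adjusted p of 0.00899, 0.00514 and 0.00163.

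Of the 15 largest rises and the 15 largest falls, 7 each had a called difference from dHep. Large changes without one included Hmx1 (8.58 ± 2.65, edgeR adjusted p = 0.294), Sult3a2 (-6.25 ± 1.35, adjusted p = 0.0549), Apol7c (2.87 ± 0.85, adjusted p = 0.237) and Gpnmb (2.44 ± 1.37). Mmp13 (1.25 ± 0.65) and Adamdec1 (0.26 ± 0.53) had no called difference either. Apol7c, Mmp13 and Adamdec1 are also among the 4 genes that rose in dHep. The Mup list had medians of -3.43 in dHSC, -2.30 in WT and -3.03 in dHep, with 11, 5 and 1 members fallen. The MHC class II list had medians of 1.48, 2.13 and 1.29, with 6, 8 and 0 members risen.

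**Figure D5:**
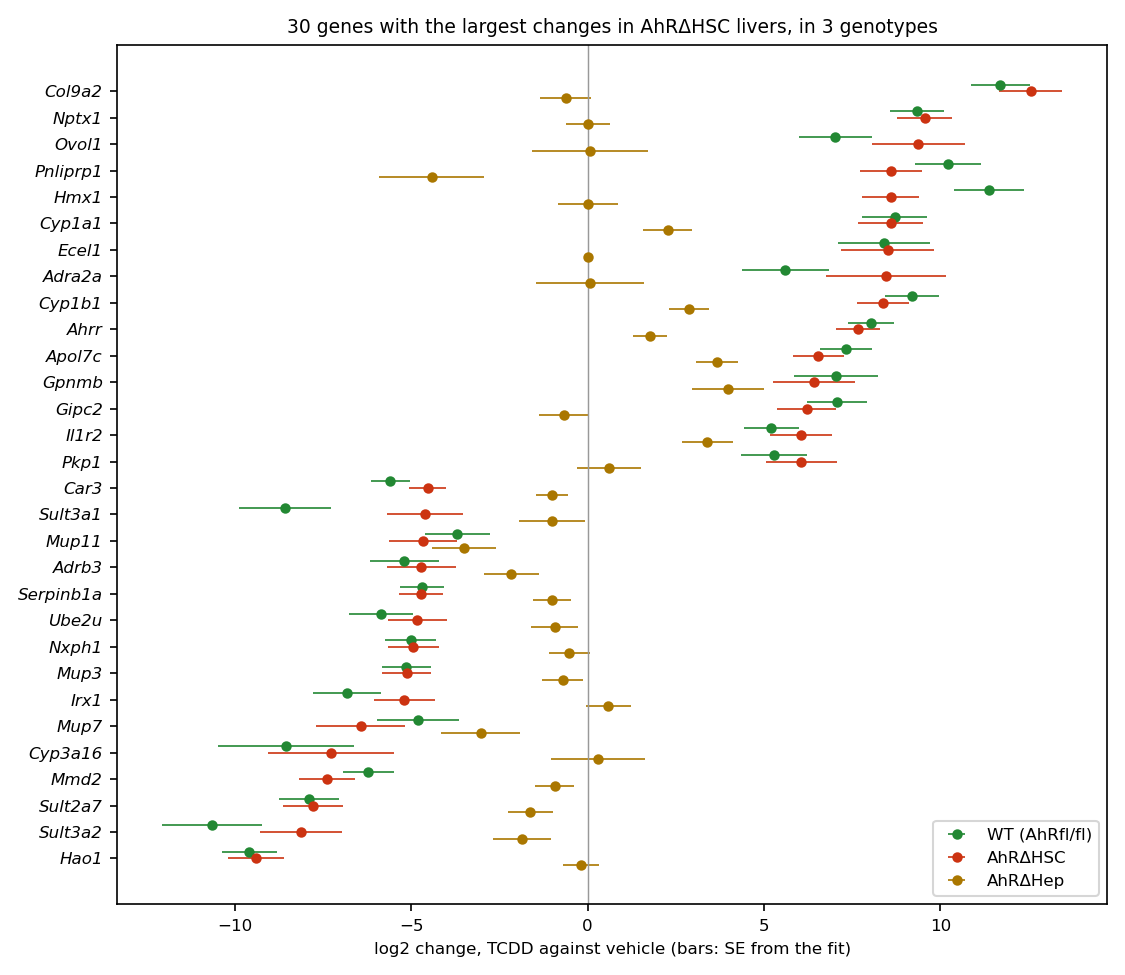
Log2 change with TCDD of the 15 largest rises and 15 largest falls of dHSC livers, in WT (green), dHSC (red) and dHep (brown), each with its SE from the fit. The WT and dHSC points lie on the same side of 0 for all 30 genes, and the dHep points mostly lie nearer to 0. The genes were chosen on the dHSC values, and genes with few or no counts in a group, such as Ovol1, Ecel1 and Pnliprp1 in dHep, have fitted values that rest on the model's handling of 0.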

How the data were processed

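RNA from 10 mg of liver was sequenced from NEBNext Ultra libraries, per the labels' protocols, and HISAT2 2.1.0, HTSeq 0.11.3 and GRCm38 are named in the submitters' processing notes. The authors deposited raw read counts per gene. Strand and the handling of shared reads are not given in the sources used here, so reads of overlapping genes cannot be told apart. All 55536 identifiers matched GENCODE M21 names. Counts of all 18 libraries were fitted with edgeR 4.0.16 (R 4.3.3): filterByExpr, TMM scaling, group means and the quasi-likelihood test. p-values were adjusted by Benjamini-Hochberg across every tested gene, with a threshold of 0.05. CPM are after TMM scaling. The SE is the absolute log2 change divided by the square root of the F statistic of that test. The p-values rest on the spread between mice within groups. That spread was estimated over all 18 libraries (12 residual degrees of freedom), not from the 3 mice a group alone. DESeq2 1.42.0, other scaling, other filters and left-out libraries were alternatives. Ratios with 1 to 3 counts in a group have exact 95% intervals for counting error. The fit was tested on simulated data.

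Named genes were called, averaged at least 1 CPM and had groups that did not overlap. They are the 15 largest rises and falls, the 8 largest changes in CPM each way, up to 4 members of each list, 6 genes not called in WT and up to 6 each way for differences between genotypes. Ahr and the stellate cell and myofibroblast lists were named whatever their result. Other genes in the text were chosen after their values were seen. The members and lists were chosen with earlier results of these data known. The result of 1 gene is not reported here.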

Additional observations from a re-analysis of the deposited data

Results flagged for a closer look

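The TCDD response differed between dHSC and dHep livers for 64 genes by edgeR's test of the difference (adjusted p under 0.05). The log2 change in dHSC exceeded that in dHep by 13.18 for Col9a2, 13.02 for Pnliprp1, 9.54 for Nptx1, 8.07 for Pdzrn3, 7.44 for Col4a3 and 6.86 for Gipc2. Pnliprp1 was near 0 in dHep, so its fitted difference depends on the prior count. The difference was -9.22 for Hao1, -6.46 for Mmd2, -6.16 for Sult2a7, -5.79 for Irx1, -4.84 for Serpina7 and -4.42 for Mup3.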

How the results depend on the processing

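The count of genes called in dHSC, 379 (254 higher, 125 lower), was 75 (51 and 24) with the 6 libraries fitted alone, 792 (443 and 349) with a covariate for the share of counts that fall outside protein-coding genes, 763 (481 and 282) in DESeq2, 173 (119 and 54) without replicates 17 and 18, and 214 (146 and 68) without the 5 libraries over 2% in that share. With 1 library left out it ran from 169 to 297 (99 to 219 higher, 70 to 93 lower). The difference from WT stayed at 0 in edgeR, also with 1 library left out, and was 3 in DESeq2, all 3 lower. The difference from dHep, 64 (41 higher, 23 lower), was 27 (17 and 10) with its groups fitted alone, 131 (81 and 50) with the covariate, 237 (155 and 82) in DESeq2 and 36 (30 and 6) without replicates 17 and 18. It ran from 24 to 61 (19 to 47 higher, 3 to 17 lower) with 1 library left out, and was not run without the 5 libraries, which leaves 1 dHep vehicle library. The cause of these shifts was not tested. RLE scaling, no filter on low counts and a minimum of 1 CPM in 3 libraries kept each dHSC count within 1.5 times. Of the 94 named genes, 26 kept their call in all settings run. With the 6 libraries fitted alone 30 kept it, and 52 kept it without replicates 17 and 18. None changed direction, but the naming rule asked for groups without overlap, which leaves little room for such a change. No paired or blocked analysis was run, because no replicate number occurs in more than 1 group. Depth limits genes near 1 CPM most, and single Mup genes rest on shared reads.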

Other observations

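Several gene groups outside the comparisons above held few calls, where 2.55% of all genes tested were called. None of 16 ductular genes (median 0.92), 18 endothelial markers (0.17), 25 cell cycle genes (0.48) or 16 NRF2 targets (0.24) was called in dHSC. The NRF2 list leaves out Nqo1, which rose and was counted with the AHR targets. Of 20 acute phase genes, 1 rose and 1 fell. Lcn2, the iron-carrier-binding lipocalin, went from 6.25, 13.2 and 12.5 CPM with vehicle to 37.8, 18.04 and 150.3 with TCDD, highest in TCDD replicate 18 (edgeR adjusted p = 0.039; 0.403 without replicates 17 and 18). Apcs, serum amyloid P, went from 129.5, 149 and 158 to 48.6, 27.3 and 23.7 CPM (adjusted p = 0.0084; 0.0947 without replicates 17 and 18). Of 10 secreted protease inhibitors and relatives, 3 fell. Among them, Serpina12, the adipokine vaspin, went from 12.4, 17.8 and 34.3 to 1.99, 1.53 and 1.65 CPM, at -3.64 ± 0.71 (adjusted p = 0.0103; 0.125 without replicates 17 and 18).

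Of markers that would come from tissue next to the liver, few were tested: 3 of 12 of skeletal muscle, with no call in dHSC and all 3 called lower in WT, and 5 of 12 of pancreas, fat and mesothelium. Cela1, an elastase, fell from 19.4, 42.7 and 51.7 to 8.41, 7.91 and 2.58 CPM (edgeR adjusted p = 0.0145; 0.156 without replicates 17 and 18). Other pancreas markers were nearly absent: over the 6 dHSC libraries Prss2 and Amy2a5 held 0 counts, Cpa1 and Pnlip 1 each, and Ctrb1 5. The source of the Cela1 reads was not tested. Adrb3, the beta-3 adrenergic receptor, fell from 3.49, 2.95 and 6.40 to 0.148, 0 and 0.358 CPM, while Adra2a rose, and its call was lost without TCDD 6 or 12 (adjusted p of up to 0.0595). Nxph1, a ligand of neurexins, fell from 8.28, 8.18 and 34.04 to 0.590, 0.593 and 0.430 CPM, at -4.94 ± 0.72 (adjusted p = 0.00132). Htatip2, an oxidoreductase-like protein, rose from 80.7, 61.96 and 97.1 to 325, 333 and 269 CPM, at 1.95 ± 0.29 (adjusted p = 0.00172).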
